A study of Danio rerio with 36 samples.

Results

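The 29 genes described here encode the enzymes that build cholesterol and the proteins that sense it, take it up and move it within the cell. They were picked by symbol from 24023 gene symbols that were counted in both experiments of the study, and 29 of 29 were found. RNA came from pooled heads, cut in front of the swim bladder, of zebrafish larvae of a mixed wild-type line kept at the US EPA, 10 days after fertilization. Axenic larvae had no microbes, and conventional larvae had kept the usual ones. Re-colonized larvae were first made axenic and then received microbes on day 1, so they control for the handling, and the study asked what goes with the hyperactivity of axenic larvae. Experiment 1 held 6 libraries of each group from ribosomal RNA-depleted RNA, and its axenic libraries carry the letters A, C, D, F, G and H. Experiment 2 held 4 axenic libraries (1, 3, 4, 7), 7 re-colonized and 7 conventional from polyA-selected RNA. Each library is a pool of heads, so it holds brain, eye, skin, muscle and other tissues together, and no label ties a pool to its own spawn; the p-values below therefore reflect how pools vary, which may be technical.

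Cholesterol is made from acetyl-CoA through mevalonate, the isoprenoid diphosphates, squalene and lanosterol, and a series of sterol intermediates leads from lanosterol to the product. In vertebrates the transcription factor Srebf2 turns on these enzymes and the LDL receptor when the membrane of the endoplasmic reticulum is poor in sterol, because Scap then carries it to the Golgi for cleavage, and when sterol is plentiful Insig proteins hold Scap back. Brain makes most of its own cholesterol, much of it for myelin, while liver and intestine exchange it with the blood as lipoproteins.

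Total counts per library were 11716737 to 15017645 in experiment 1 and 15148068 to 25760598 in experiment 2. The biological coefficient of variation over all genes was 16.5% in the first experiment and 35.5% in the second. Library names of experiment 1 carry the mark L6 in axenic and re-colonized libraries and L7 in conventional ones. The sources used here give no meaning for it, and in comparisons with conventional heads it cannot be told apart from the group. Re-colonized 1 and 7 of experiment 2 stood apart, with TMM scaling factors of 1.549 and 1.376. Neuron markers, at a sum of 386.4 to 512.7 CPM in experiment 1 and 795.8 to 2081 CPM in experiment 2, and retina and lens markers were present in every library. CPM, the usual depth-scaled count, was computed here with TMM factors; it is not divided by gene length, so levels are compared between samples and not between genes.

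Axenic heads of experiment 1 held more transcript of most of the synthesis enzymes than colonized heads, and fewer of the enzymes were called in experiment 2. None of the 7 listed genes that control, take up or move cholesterol was called higher in either experiment. In experiment 1, 17 of 29 genes were higher and 1 was lower in axenic than in conventional heads (edgeR, Benjamini-Hochberg adjusted p below 0.05). Over all genes tested 8.89% were higher and 6.71% lower in that comparison. Against re-colonized heads 17 were higher and 3 lower, where 8.67% of all genes were higher and 8.27% lower. The median log2 fold change of the 29 genes was 0.94 against conventional and 0.87 against re-colonized heads, beside -0.0085 and 0.0088 over all genes tested. In experiment 2, 8 genes were higher and 0 lower in each comparison, against a background of 3.99% higher and 2.15% lower versus conventional heads and 3.25% higher and 0.64% lower versus re-colonized heads. Their median was 0.62 and 0.61 there, beside 0.0443 and -0.0056 over all genes. The calls of an experiment share its axenic libraries and are not independent of each other. All 29 genes passed the filter on low counts in both experiments. In bulk RNA, more cells of a type and more transcript per cell cannot be told apart.

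**Figure D1:**
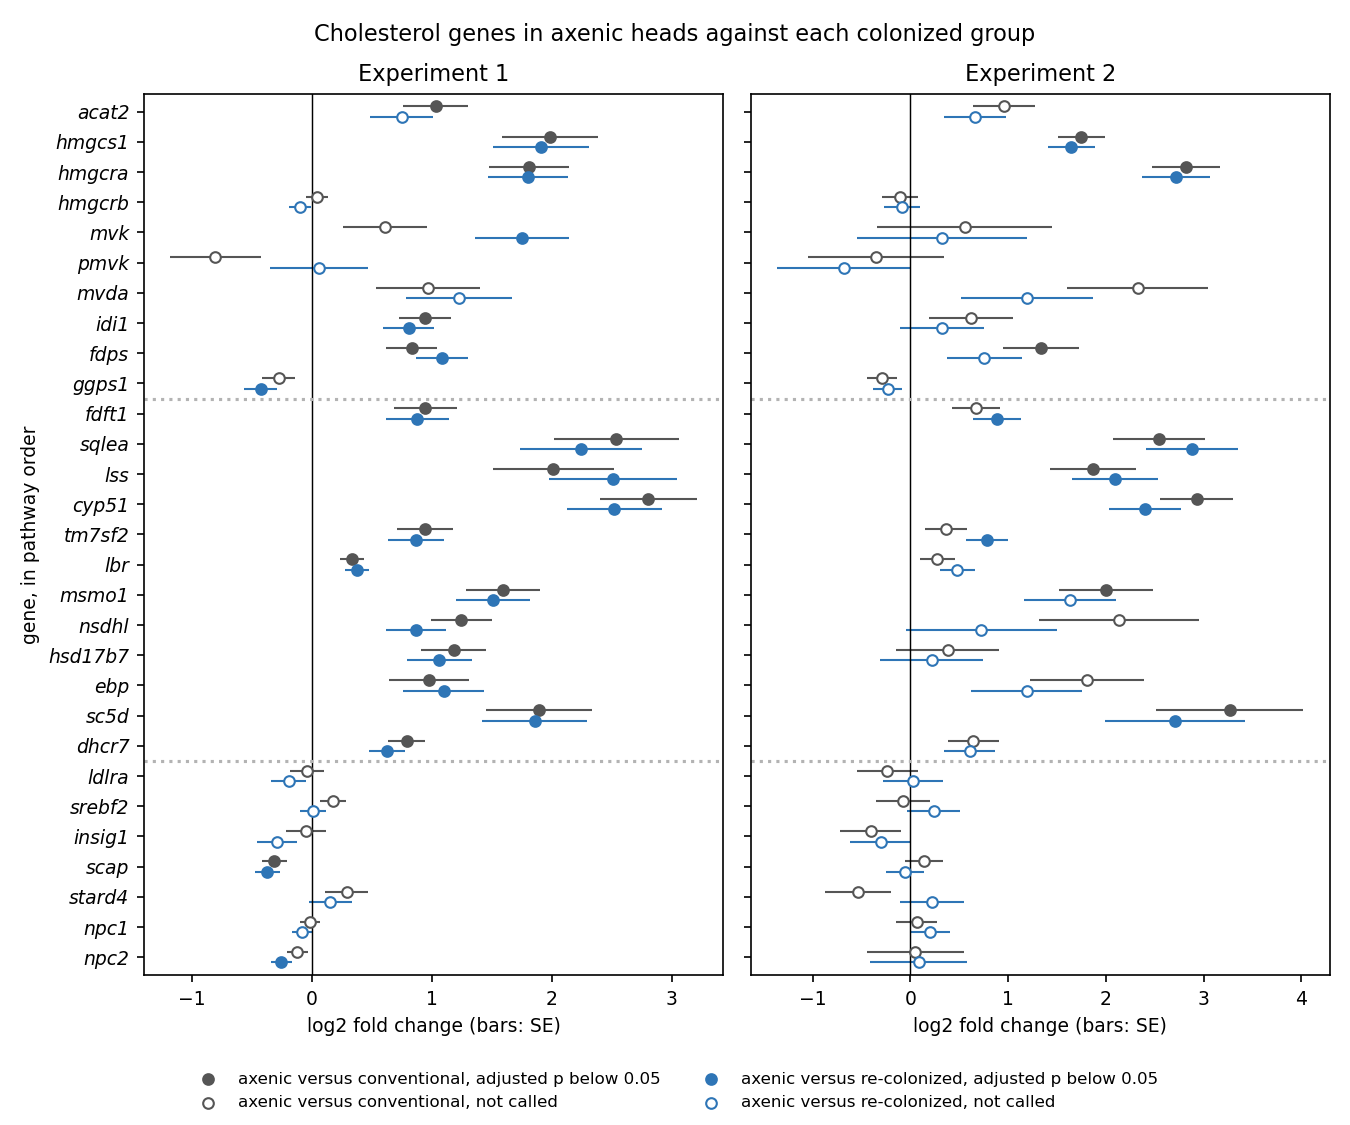
Log2 fold change of each of the 29 genes (rows, in pathway order; bars are SE) in axenic against conventional (grey) and re-colonized heads (blue), with filled points for adjusted p below 0.05; experiment 1 rests on 6 axenic libraries and experiment 2 on 4. Dotted lines separate the mevalonate and isoprenoid steps, the squalene and sterol steps, and the control, uptake and transport genes; all 12 genes of the middle block lie right of 0 in both panels and the lowest block sits around 0.

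Marker sums of several other tissues also differed between axenic and colonized heads in experiment 1, and fewer of them did in experiment 2. Of 10 liver markers listed, 9 were in the tables and 9 had counts, and their summed level was 1433 to 2080 CPM in the 6 axenic libraries of experiment 1, against 653 to 1182 in re-colonized and 645.8 to 1013 in conventional ones. In experiment 2 the same sum was 1968 to 3800 CPM in axenic, 213.8 to 1736 in re-colonized and 827.9 to 2181 in conventional libraries. Of the other lists in experiment 1, skin markers (4 of 4 detected) ran from 1604 to 2615 CPM in axenic libraries and from 590.1 to 988.2 in colonized ones, and in experiment 2 from 9092 to 17100 against 2422 to 5938. Retina markers (5 of 5) ran from 1296 to 1830 against 577.2 to 1083, and skeletal muscle markers (6 of 6) from 5510 to 6303 against 3299 to 5099. Neutrophil markers (2 of 3 listed are in the tables) were lower, at 7.87 to 14.1 against 16.3 to 34.5 CPM, as were macrophage markers (4 of 4), at 12.11 to 18.02 against 25.4 to 41.5 CPM. In experiment 2 these sums overlapped: retina markers ran from 8217 to 11750 CPM in axenic and from 3135 to 8411 in colonized libraries, muscle markers from 8902 to 14600 against 3600 to 18550, neutrophil markers from 31.0 to 48.7 against 21.9 to 232.4 and macrophage markers from 9.73 to 13.9 against 10.6 to 33.6. Myelin markers (4 of 4) of experiment 1 reached 93.5 to 126.8 CPM in axenic against 75.5 to 102.7 in colonized libraries. Sums for lens, radial glia, intestine and exocrine pancreas overlapped between axenic and colonized libraries of experiment 1. fabp6 of the intestine list had a median of 0 CPM in each group of experiment 1. The part of these tissues in the change of the cholesterol genes was not tested.

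Of the 10 genes of the mevalonate and isoprenoid steps, 5 rose and 0 fell against conventional heads of experiment 1, and 5 rose and 1 fell against re-colonized heads. hmgcs1, the cytosolic HMG-CoA synthase (chromosome 10, 6010570 to 6034398, GRCz11), held 80.95 CPM in axenic F, 57.6 in A, 22.8 in C, 10.9 in H, 10.3 in G and 9.10 in D. The 12 colonized libraries of experiment 1 lay between 6.14 and 10.25 CPM, so 5 of 6 axenic libraries stood above all of them. Its log2 fold change was 1.99 (SE 0.40, edgeR adjusted p = 0.00108) against conventional and 1.91 (SE 0.40, adjusted p = 0.00144) against re-colonized heads. In experiment 2, hmgcs1 stood at 17.8, 43.8, 23.6 and 56.3 CPM in axenic 1, 3, 4 and 7, each above the 7.03 to 14.8 CPM of the 14 colonized libraries. There it rose by 1.75 (SE 0.24, adjusted p = 0.000139) and 1.65 (SE 0.24, adjusted p = 0.000435) against conventional and re-colonized heads.

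hmgcra and hmgcrb are a pair of zebrafish genes for HMG-CoA reductase, the rate-limiting enzyme that statins block, and only the first of them was called. hmgcra (chromosome 5, 50972485 to 50992776) held 70.5 CPM in axenic A, 67.8 in F, 27.8 in C, 17.1 in D, 14.8 in H and 12.5 in G of experiment 1. Colonized libraries held 6.67 to 12.8 CPM. In experiment 2 it stood at 24.3, 88.7, 41.0 and 149.5 CPM in axenic 1, 3, 4 and 7, against 7.40 to 18.4 CPM in the 14 colonized libraries, with no overlap. The log2 fold changes were 1.81 (SE 0.33, adjusted p = 0.00045) and 1.80 (SE 0.33, adjusted p = 0.00045) in experiment 1, and 2.82 (SE 0.35, adjusted p = 4.71e-05) and 2.72 (SE 0.35, adjusted p = 0.000174) in experiment 2, against conventional and re-colonized heads in turn. hmgcrb (chromosome 21, 2506013 to 2533250) ranged from 13.3 to 18.02 CPM in axenic and from 13.5 to 18.4 CPM in colonized libraries of experiment 1. In experiment 2 it ranged from 15.2 to 23.0 and from 16.2 to 30.2 CPM. Its 4 log2 fold changes lay between -0.11 and 0.04 with SEs of 0.09 to 0.19. The difference between the 2 genes was not itself tested. The gene kat5b lies on the other strand over all 20292 bases of hmgcra, and whether counting used the strand is not given in the sources used here.

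Farther along, idi1, the isomerase of isopentenyl diphosphate, and fdps, farnesyl diphosphate synthase, rose by smaller amounts. idi1 (chromosome 24, 3469373 to 3477104) was at 21.4 to 74.3 CPM (median 28.6) in axenic libraries of experiment 1, at 17.98 to 24.1 (20.3) in re-colonized and at 16.4 to 22.3 (18.9) in conventional ones. Its log2 fold changes were 0.94 (SE 0.22, adjusted p = 0.0036) and 0.80 (SE 0.21, adjusted p = 0.0107). In experiment 2 idi1 was not called, at 0.62 (SE 0.43) and 0.32 (SE 0.43). fdps (chromosome 16, 13993351 to 14025097) was at 8.20 to 27.98 CPM (median 11.4) in axenic, at 5.65 to 9.11 (6.37) in re-colonized and at 7.21 to 8.66 (7.96) in conventional libraries of experiment 1. It rose by 0.83 (SE 0.21, adjusted p = 0.00836) and 1.08 (SE 0.22, adjusted p = 0.000954). In experiment 2 the values of axenic 1, 3, 4 and 7 were 2.89, 5.36, 3.09 and 6.48 CPM, within or above the 0.664 to 4.82 CPM of colonized libraries. There fdps was called against conventional heads at 1.34 (SE 0.39, adjusted p = 0.0411) and not against re-colonized heads at 0.76 (SE 0.38, adjusted p = 0.369). The call in experiment 2 was lost without any of 7 libraries (axenic 3 or 7, or conventional 2, 3, 4, 5 or 6), with adjusted p of 0.0574 to 0.227. A lowly counted gene, si:dkey-85k15.7, overlaps fdps on the same strand over 11661 bases.

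The remaining genes of these steps differed in direction. acat2, a thiolase that joins acetyl-CoA units, rose by 1.03 (SE 0.27, adjusted p = 0.0103) against conventional heads of experiment 1 and was not called against re-colonized heads at 0.75 (SE 0.27, adjusted p = 0.0551). Mevalonate kinase mvk rose against re-colonized heads by 1.75 (SE 0.39, adjusted p = 0.00283) and was not called against conventional heads at 0.61 (SE 0.35, adjusted p = 0.263). Its counts were small, with 139 in the 6 axenic libraries together, 36 in re-colonized and 84 in conventional ones. mvda, the decarboxylase of mevalonate diphosphate, was positive in all 4 comparisons at 0.97, 1.23, 2.33 and 1.19. It was called in none (edgeR adjusted p of 0.135, 0.0582, 0.0565 and 0.452). In experiment 2 mvda had 99 counts in the 4 axenic libraries together, 81 in re-colonized and 27 in conventional ones. Of the 7 conventional libraries 3 were at 0. pmvk, phosphomevalonate kinase, had values of -0.81, 0.06, -0.35 and -0.68 with SEs of 0.38 to 0.70 and was not called. Its counts in experiment 2 were 25 in axenic, 77 in re-colonized and 45 in conventional libraries together. ggps1, which makes geranylgeranyl diphosphate on a branch that leads away from cholesterol, fell by 0.43 (SE 0.14, adjusted p = 0.032) against re-colonized heads of experiment 1. It stood at 4.67 to 7.25 CPM in axenic against 5.90 to 8.87 CPM in re-colonized libraries, and the call was lost without any of 6 libraries (axenic C, F or G, or re-colonized D, F or G), with adjusted p of 0.0504 to 0.0824. With limma voom the calls of acat2 (adjusted p = 0.0862) and ggps1 (0.0504) were also lost, while DESeq2 called acat2 (0.0406) and mvda (0.0378) against re-colonized heads of experiment 1.

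All 12 genes of the squalene and sterol steps rose in axenic heads of experiment 1 against both colonized groups, with median log2 fold changes of 1.21 and 1.08. In experiment 2, 5 of 12 rose against conventional and 6 of 12 against re-colonized heads, and 0 fell. cyp51, the cytochrome P450 that demethylates lanosterol (chromosome 19, 598657 to 617247, minus strand), held 84.1 CPM in axenic F, 58.4 in A, 24.0 in C, 14.5 in H, 12.9 in D and 8.21 in G. All 6 lay above the 4.05 to 7.53 CPM of the 12 colonized libraries, which held for 1 of the 29 genes in experiment 1 and for 2.04% of all genes tested. Its log2 fold change was 2.80 (SE 0.41, adjusted p = 3.1e-05) against conventional and 2.52 (SE 0.40, adjusted p = 7.71e-05) against re-colonized heads. In experiment 2 cyp51 stood at 9.66, 40.04, 16.2 and 48.35 CPM in axenic 1, 3, 4 and 7, again above all colonized libraries, which held 1.46 to 8.04 CPM. There 4 of the 29 genes (hmgcs1, hmgcra, fdft1 and cyp51) and 1.72% of all genes had every axenic library above every colonized one. The fold changes of 2.93 (SE 0.37, adjusted p = 7.39e-05) and 2.40 (SE 0.36, adjusted p = 0.000516) stood beside those of experiment 1, and the difference between the experiments is given further on.

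The enzymes on either side of lanosterol rose as well. fdft1, squalene synthase (chromosome 20, 52907397 to 52939502), was at 6.33 to 20.6 CPM (median 7.46) in axenic and at 3.64 to 9.34 CPM in colonized libraries of experiment 1, and rose by 0.95 (SE 0.26, adjusted p = 0.0149) and 0.88 (SE 0.26, adjusted p = 0.022). In experiment 2 it stood at 50.8, 88.35, 53.0 and 60.1 CPM in axenic 1, 3, 4 and 7, all above the 15.7 to 48.5 CPM of colonized libraries, and was called against re-colonized heads (0.89, SE 0.25, adjusted p = 0.0423) but not conventional heads (0.67, SE 0.25, adjusted p = 0.115). sqlea, a squalene epoxidase (chromosome 16, 43401005 to 43413294), held 20.95 CPM in axenic F, 17.2 in A, 5.70 in C, 2.13 in D, 1.64 in H and 1.30 in G. Colonized libraries of experiment 1 held 1.14 to 2.20 CPM, so axenic D, G and H lay within their range and F, A and C above it. The log2 fold changes of sqlea were 2.54 (SE 0.52, adjusted p = 0.00133) and 2.24 (SE 0.51, adjusted p = 0.00307) in experiment 1. In experiment 2 it stood at 1.84, 14.6, 5.77 and 25.05 CPM in axenic 1, 3, 4 and 7 beside 0.759 to 4.04 CPM in colonized libraries, and rose by 2.54 (SE 0.47, adjusted p = 0.00181) and 2.88 (SE 0.47, adjusted p = 0.00107). lss, lanosterol synthase (chromosome 9, 38481780 to 38500392), rose by 2.01 (SE 0.51, adjusted p = 0.00726) and 2.51 (SE 0.53, adjusted p = 0.00172) in experiment 1 and by 1.86 (SE 0.44, adjusted p = 0.0122) and 2.09 (SE 0.44, adjusted p = 0.00711) in experiment 2. Its levels were 7.03, 5.91 and 1.94 CPM in axenic F, A and C, 0.616 to 1.07 in axenic D, G and H and 0.224 to 1.06 in colonized libraries. In experiment 2 lss stood at 0.797, 4.95, 2.82 and 6.004 CPM in axenic 1, 3, 4 and 7 and at 0.179 to 1.47 CPM in colonized libraries, so axenic 1 lay within their range. mcm3ap overlaps lss on the same strand over 2011 bases. With limma voom and quality weights, sqlea was not called in experiment 1 (adjusted p = 0.0794 and 0.151), nor was lss against conventional heads (adjusted p = 0.0813 in experiment 1 and 0.0699 in experiment 2). Leaving out axenic 7 ended both calls of lss in experiment 2 (adjusted p = 0.131 and 0.0911). The calls of fdft1 were lost without axenic F against conventional heads (adjusted p = 0.0685), without axenic A or F or re-colonized D against re-colonized heads of experiment 1 (0.061 to 0.0988), and without any of 7 libraries of experiment 2 (axenic 3, 4 or 7, or re-colonized 1, 3, 5 or 7; 0.067 to 0.189).

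Among the enzymes after lanosterol, msmo1, the methylsterol monooxygenase (chromosome 1, 20916551 to 20928773), rose by 1.59 (SE 0.31, adjusted p = 0.000821) and 1.51 (SE 0.31, adjusted p = 0.00128) in experiment 1. It held 86.7, 57.6 and 37.7 CPM in axenic F, A and C, 14.6 to 18.7 in axenic D, G and H, and 10.0 to 15.1 in colonized libraries. In experiment 2 the axenic values were 2.49, 14.8, 4.83 and 22.1 CPM in 1, 3, 4 and 7 beside 1.17 to 8.05 CPM in colonized libraries, with a rise of 2.00 (SE 0.48, adjusted p = 0.0132) against conventional heads that was lost without axenic 7 (adjusted p = 0.174). Against re-colonized heads msmo1 was not called, at 1.63 (SE 0.47, adjusted p = 0.0523). sc5d, a sterol desaturase (chromosome 21, 24531679 to 24535511), rose by 1.89 (SE 0.44, adjusted p = 0.00394) and 1.86 (SE 0.44, adjusted p = 0.00439) in experiment 1, from 0.589 to 1.79 CPM in colonized libraries to 9.54, 9.37 and 3.31 CPM in axenic F, A and C and 1.07 to 2.06 CPM in D, G and H. In experiment 2 sc5d had 349 counts in the 4 axenic libraries together, 100 in the 7 re-colonized and 49 in the 7 conventional ones, 2 of which were at 0. Axenic 7 alone was at 9.98 CPM and axenic 1, 3 and 4 at 0.249, 2.66 and 1.88. The fitted log2 fold changes of 3.27 (SE 0.76, adjusted p = 0.0108) and 2.71 (SE 0.72, adjusted p = 0.0338) were both lost without axenic 7 (adjusted p = 0.23 and 0.569), and the second also without any of the 7 re-colonized libraries (from 0.0514). nsdhl, hsd17b7 and ebp, which remove methyl groups from the sterol, reduce its ketone and shift its double bond, rose by 0.87 to 1.25 in both comparisons of experiment 1 and were called in neither of experiment 2, where they had medians of at most 2.44 CPM in any group. The call of ebp was lost without any of 7 libraries against conventional heads (axenic A or F, or conventional A, B, C, F or G; adjusted p of 0.052 to 0.222) and of 4 against re-colonized heads (axenic A or F, or re-colonized F or G; 0.0545 to 0.124), and that of nsdhl against re-colonized heads without axenic A or F (0.0733 and 0.0699). With limma voom sc5d was called in none of the 4 comparisons (adjusted p of 0.058 to 0.296), ebp in neither of experiment 1 (0.138 and 0.102), nsdhl not against re-colonized heads (0.0724) and msmo1 not in experiment 2 against conventional heads (0.066), where DESeq2 kept msmo1.

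Reduction of the sterol ring is carried out by tm7sf2, lbr and dhcr7. dhcr7 (chromosome 2, 28648888 to 28682477), which acts in the last steps before cholesterol, was at 23.9 to 53.8 CPM (median 32.2) in axenic and at 17.0 to 26.1 CPM in colonized libraries of experiment 1, and rose by 0.79 (SE 0.15, adjusted p = 0.000714) and 0.62 (SE 0.15, adjusted p = 0.00527). Its differences of 0.64 and 0.61 in experiment 2 were of the same size and not called (adjusted p = 0.158 and 0.265). tm7sf2 rose by 0.94 (SE 0.24, adjusted p = 0.00734) and 0.87 (SE 0.24, adjusted p = 0.0121), and in experiment 2 by 0.79 (SE 0.21, adjusted p = 0.0381) against re-colonized heads only, a call lost without any of 9 libraries (axenic 3, 4 or 7, or re-colonized 1, 3, 4, 5, 6 or 7; adjusted p of 0.0528 to 0.264). slc37a4b lies on the other strand over all 5623 bases of tm7sf2. lbr, the lamin B receptor, is both a sterol reductase and a protein of the inner nuclear membrane, and it moved differently. Its axenic levels in experiment 1 were 19.1, 21.1, 21.53, 20.4, 19.7 and 20.8 CPM in A, C, D, F, G and H, a spread of 1.13-fold, beside 12.25 to 19.25 CPM in colonized libraries. The rise of 0.33 (SE 0.10, adjusted p = 0.021; 0.0584 without conventional H) and 0.38 (SE 0.10, adjusted p = 0.00884) was the smallest of the 12 genes. In experiment 2 lbr was not called, at 0.28 (SE 0.18) and 0.48 (SE 0.18).

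**Figure D2:**
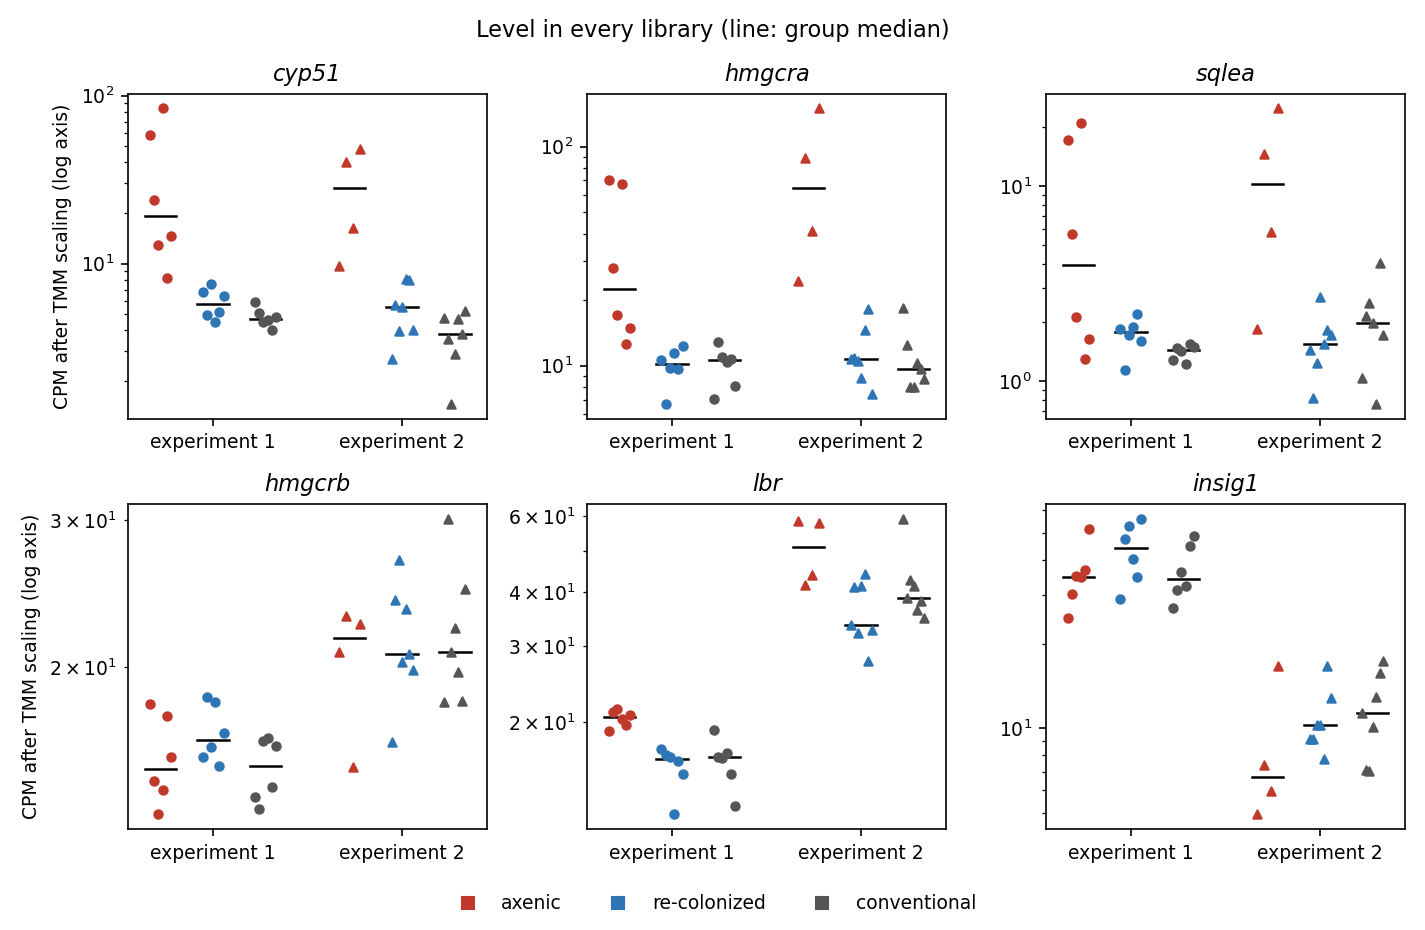
CPM after TMM scaling (log axis) of 6 genes in every library of experiment 1 (circles) and experiment 2 (triangles), with axenic in red, re-colonized in blue and conventional in grey and a line at each group median. Axenic libraries of cyp51 lie above all colonized ones in both experiments and spread from 8.21 to 84.1 CPM in experiment 1; hmgcrb and insig1 overlap between groups; lbr spreads 1.13-fold within axenic heads of experiment 1.

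None of the 7 genes of control, uptake and transport was called higher in any of the 4 comparisons. ldlra, an LDL receptor that takes up lipoprotein cholesterol (chromosome 3, 19299309 to 19323690), was at 43.2 to 70.9 CPM (median 50.3) in axenic, 48.0 to 87.2 (58.0) in re-colonized and 44.1 to 76.1 (50.1) in conventional libraries of experiment 1. Its log2 fold changes were -0.04 (SE 0.14) and -0.20 (SE 0.14) in experiment 1 and -0.24 (SE 0.31) and 0.03 (SE 0.31) in experiment 2, and none was called (adjusted p of 0.387 to 0.979). srebf2, which encodes the transcription factor itself (chromosome 3, 1107102 to 1130893), was at 25.6 to 43.2 CPM in axenic and at 27.01 to 37.8 CPM in colonized libraries of experiment 1. Its fold changes were 0.18 (SE 0.11), 0.01 (SE 0.11), -0.08 (SE 0.28) and 0.24 (SE 0.27). insig1, whose protein retains Scap and whose gene is itself a target of Srebf2 in mammals (chromosome 7, 41007773 to 41014774), was at 24.8 to 51.3 CPM in axenic and at 26.9 to 56.1 CPM in colonized libraries of experiment 1. Its values of -0.05 (SE 0.17), -0.29 (SE 0.17), -0.41 (SE 0.31) and -0.31 (SE 0.31) were not called (adjusted p of 0.247 to 0.872). sinhcafl lies on the other strand over all 7002 bases of insig1.

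scap, which escorts Srebf2 (chromosome 16, 41060161 to 41103783), fell in experiment 1 by 0.31 (SE 0.10, adjusted p = 0.0429) against conventional and by 0.37 (SE 0.10, adjusted p = 0.015) against re-colonized heads. It stood at 17.2, 18.3, 19.1, 23.3, 22.8 and 25.5 CPM in axenic A, C, D, F, G and H and at 22.7 to 32.0 CPM in colonized libraries, so A, C and D lay below all of these. Against conventional heads the call was lost without any of 6 libraries (axenic A, C or D, or conventional A, B or F; adjusted p of 0.0835 to 0.116), and in experiment 2 the values were 0.14 (SE 0.19) and -0.05 (SE 0.20). The lysosomal sterol exporter npc2 fell by 0.26 (SE 0.09, adjusted p = 0.0376) against re-colonized heads of experiment 1, from 36.4 to 48.6 CPM to 29.9 to 38.5 CPM, a call that was lost without any of 6 libraries (axenic D, G or H, or re-colonized D, F or G; 0.0558 to 0.112). npc2 lies with all 1513 of its bases within esrrb on the same strand, and whether they share reads was not tested. Its partner npc1 and the sterol carrier stard4 were not called, with log2 fold changes of -0.08 to 0.20 and -0.53 to 0.29.

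Most synthesis genes differed among the axenic libraries in a shared order, and some control, uptake and transport genes had the same libraries on top. Of the 16 genes that rose against both colonized groups of experiment 1, as 6.56% of all genes did, 15 had their 2 highest axenic values in F and A, and lbr was the exception. Axenic F was the highest for 13 of them and A for hmgcra and nsdhl. Outside the 16, F and A were also the 2 highest for acat2, mvk, pmvk, mvda, srebf2, stard4 and npc2. srebf2 held 43.18 CPM in A and 42.95 CPM in F, where the highest colonized library held 37.84 CPM. How many of all genes have these 2 libraries on top was not counted. In experiment 2, 3 and 7 were the 2 highest axenic libraries for 13 of the same 16 genes, 7 was the highest for 13 and 1 the lowest for 12. Outside the 16, 3 and 7 were also the 2 highest for acat2, hmgcrb, mvda, ggps1, insig1 and scap. Axenic 7 was the highest for pmvk, ldlra, srebf2 and npc1 as well. The share of all genes with 3 and 7 on top was not counted either. The median deviation of the 16 genes from the mean of the colonized libraries, as log2(CPM + 0.5), was 1.96 in axenic F, 1.54 in A and 1.00 in C, and 0.39, 0.30 and 0.26 in H, D and G. It was 1.68, 1.54, 0.55 and 0.43 in axenic 7, 3, 4 and 1 of experiment 2. Colonized libraries lay between -0.14 and 0.12 in experiment 1 and between -0.29 and 0.30 in experiment 2, below every axenic library of their experiment; the 16 genes were chosen by this contrast in experiment 1, so for that experiment the separation is a description. The 7 control, uptake and transport genes had medians of -0.31 to 0.01 in axenic libraries of experiment 1 and of -0.15 to 0.36 in experiment 2, where colonized libraries had -0.25 to 0.09 and -0.61 to 0.58.

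**Figure D3:**
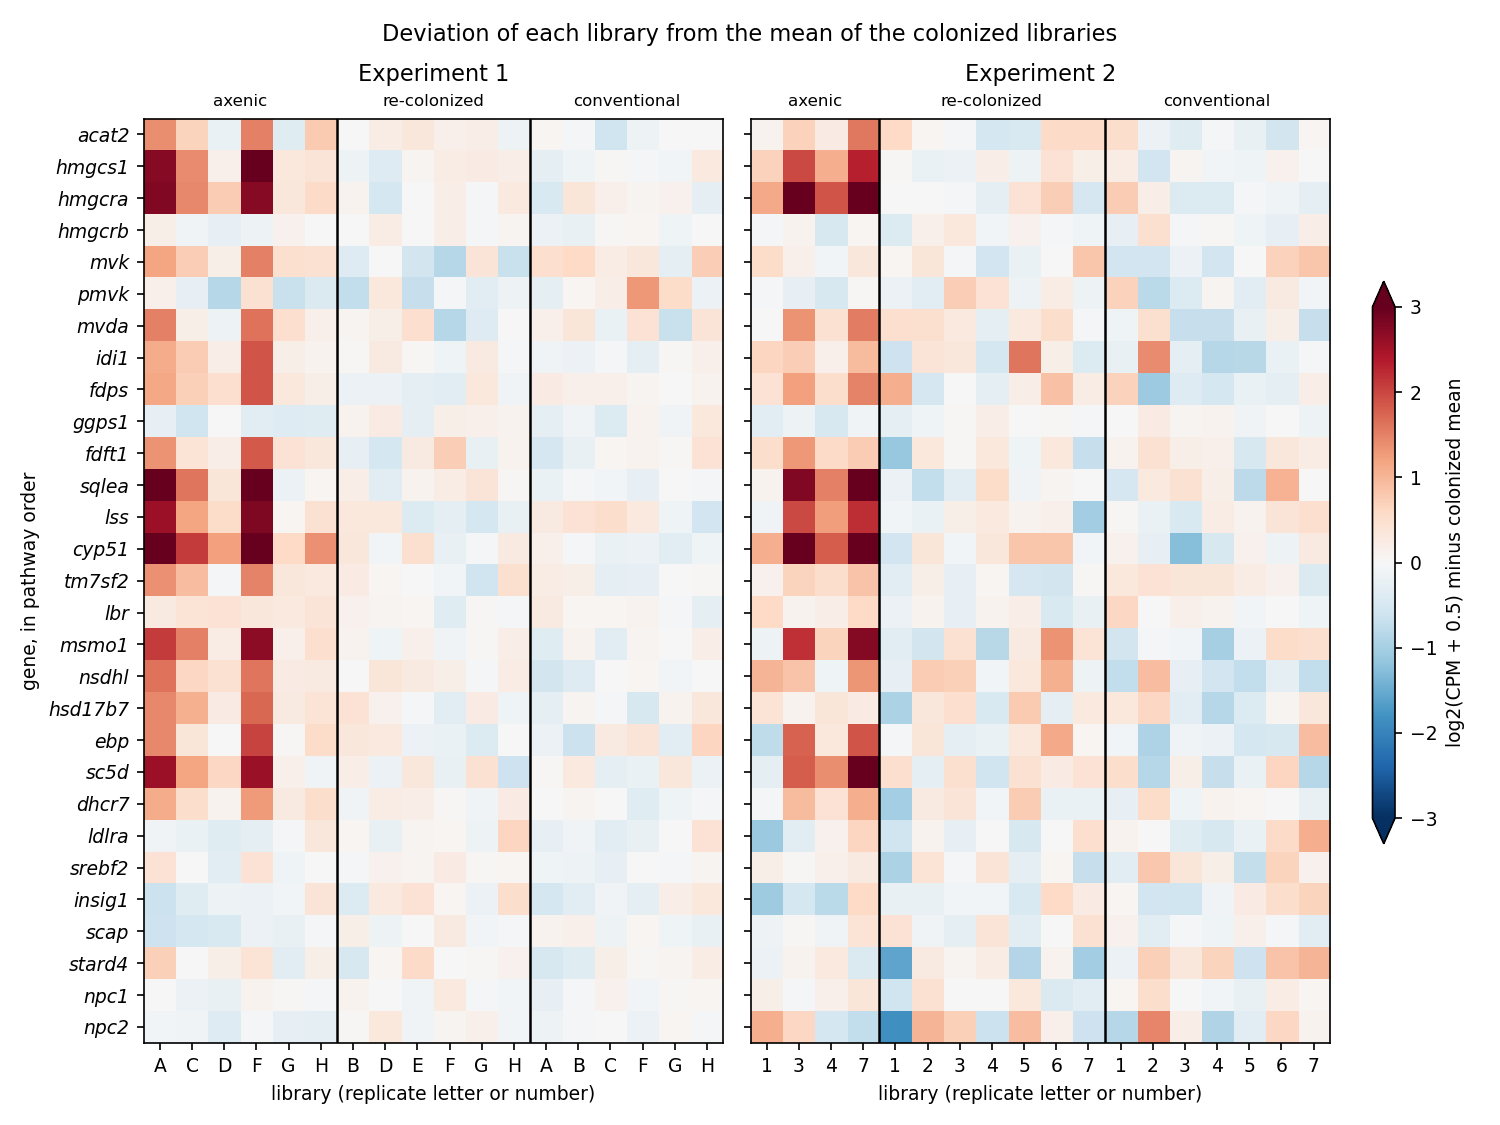
Deviation of each gene (rows, in pathway order) in each library (columns) from the mean of the colonized libraries of its experiment, as a difference of log2(CPM + 0.5); colours stop at 3 and larger values share the end colour. Axenic A, C and F of experiment 1 and 3 and 7 of experiment 2 are red across most synthesis genes, hmgcrb and ggps1 among the exceptions, while the lowest 7 rows show no such block.

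**Figure D4:**
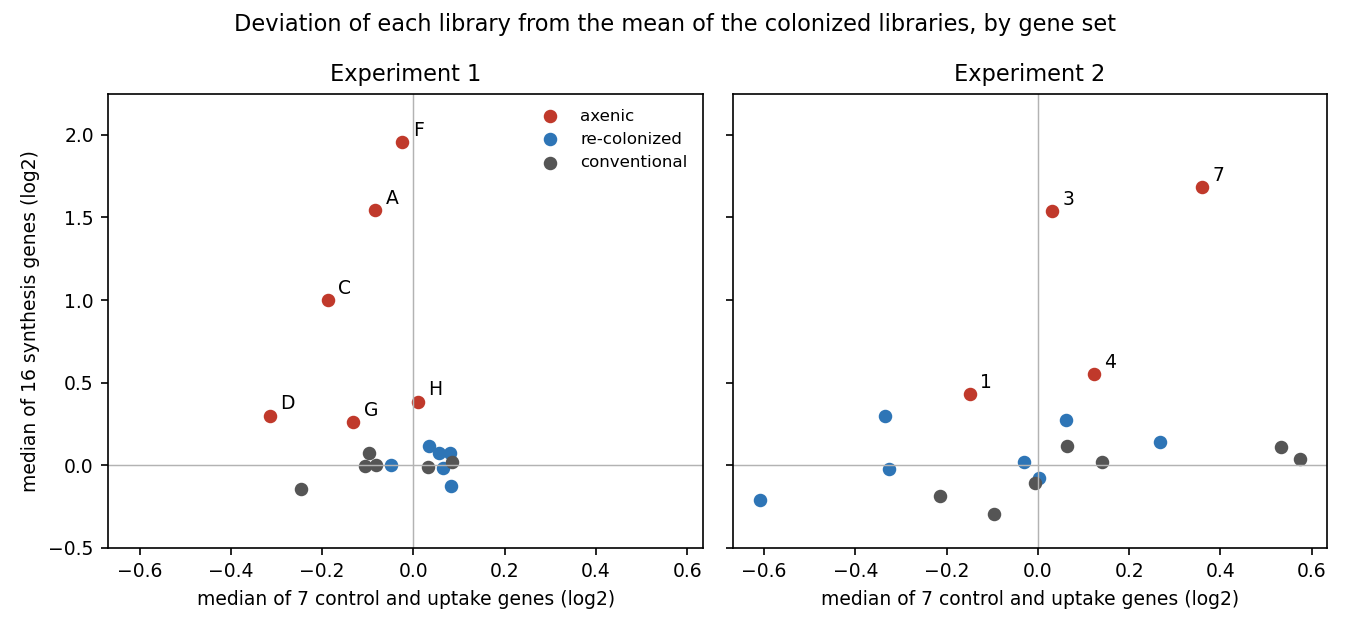
Median deviation from the colonized mean (log2) of the 16 genes that rose against both colonized groups of experiment 1 (vertical axis) against that of the 7 control, uptake and transport genes (horizontal axis), 1 point per library, with axenic libraries named. Axenic libraries lie above the colonized ones and differ from each other along the vertical axis, from 0.26 to 1.96 in experiment 1 and from 0.43 to 1.68 in experiment 2. The 16 genes were chosen by this contrast in experiment 1, so the separation in that panel only describes the choice.

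Leaving out the axenic libraries highest in synthesis genes lowers the rise of most of these genes by construction. The values without them therefore only describe the remaining libraries, which are also fewer. Without axenic A and F, a choice made after their values were seen and by those values, 8 genes were still called higher against conventional and 6 against re-colonized heads of experiment 1, and pmvk was called lower against conventional heads (-1.36, adjusted p = 0.0472). Calls over all genes fell too, to 4.77% higher and 3.3% lower against conventional and to 4.61% higher and 4.78% lower against re-colonized heads. cyp51 then rose by 1.63 (SE 0.21, adjusted p = 1.52e-05) and 1.35 (SE 0.21, adjusted p = 0.000128), hmgcra by 0.85 (SE 0.19, adjusted p = 0.00556) and 0.85 (SE 0.19, adjusted p = 0.00565), and hmgcs1, lbr and msmo1 were also called in both. For lbr, whose lowest axenic library was A, the values were 0.36 and 0.40, as large as with all libraries. sqlea was then at 0.95 and 0.66 and lss at 0.68 and 1.18, and neither was called. Without axenic 3 and 7 of experiment 2, hmgcra (1.60, SE 0.31, adjusted p = 0.0144) and cyp51 (1.78, SE 0.38, adjusted p = 0.0243) were called against conventional heads and hmgcra alone (1.497, SE 0.31, adjusted p = 0.0329) against re-colonized heads. Over all genes 0.645% were then higher and 0.172% lower against conventional heads, and 0.378% higher and 0.0478% lower against re-colonized heads. Without re-colonized 1 and 7, the libraries of experiment 2 that stood apart, fdft1 (adjusted p = 0.148), tm7sf2 (0.108) and sc5d (0.0861) were no longer called against re-colonized heads, and hmgcs1, hmgcra, sqlea, lss and cyp51 still were, where 1.43% of all genes were higher and 0.416% lower.

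The summed liver markers were 2080, 1974 and 1856 CPM in axenic A, F and C and 1665, 1487 and 1433 CPM in H, G and D, so the 3 libraries high in synthesis genes were also the 3 high in liver markers. Over the same 6 libraries the 16 genes that rose against both colonized groups spread from 1.13-fold (lbr) to 16.1-fold (sqlea), with cyp51 at 10.2-fold. In experiment 2 the liver sum was 3800 and 2356 CPM in axenic 3 and 1 and 1998 and 1968 CPM in 7 and 4, an order that is not that of the synthesis genes. Skin markers of experiment 1 were highest in axenic A and F too, at 2615 and 2105 CPM, and intestine markers were highest in A, F and C, at 295.9, 245.6 and 239.1 CPM, against 189.2 to 213.1 CPM in D, G and H. Myelin markers did not share this order, at 126.8 CPM in C, 107 in A and 93.5 in F against 99.8 to 108.7 CPM in D, G and H. Exocrine pancreas markers ran the other way and were lowest in F and A, at 4857 and 5373 CPM. In axenic C, D, G and H they reached 5925 to 7373 CPM. In experiment 2 skin markers were highest in axenic 4 and 7, at 17100 and 16610 CPM, and lowest in 3, at 9092 CPM, and intestine markers were highest in 7 and 4, at 422.9 and 421.5 CPM. The part of these tissues in the spread between axenic libraries was not tested.

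The comparison of re-colonized with conventional heads asks whether the derivation itself left a difference once microbes were returned. None of the 29 genes was called in experiment 1 or in experiment 2 by edgeR, DESeq2 or limma voom (0 in each), and 2 in each experiment had an unadjusted p below 0.05 with edgeR. Over all genes tested 0.0101% were higher and 0.00507% lower in experiment 1, and 0% either way in experiment 2. cyp51 differed by 0.28 (SE 0.43) in experiment 1 and 0.53 (SE 0.33) in experiment 2, hmgcra by 0.01 (SE 0.35) and 0.10 (SE 0.30), and sqlea by 0.30 (SE 0.60) and -0.34 (SE 0.43). Larger values with large errors, none of them called, were those of mvk at -1.14 (SE 0.41) and pmvk at -0.86 (SE 0.39) in experiment 1 and nsdhl at 1.41 (SE 0.74) in experiment 2.

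The rise was then compared between the experiments as an interaction in 1 edgeR fit over all 36 libraries. None of the 29 genes was called as different between experiments in either axenic comparison (0 called, 1 and 0 at an unadjusted p below 0.05, and 0 with DESeq2 and with limma voom). Their estimates ran from -1.27 to 0.885 against conventional and from -0.849 to 1.47 against re-colonized heads, so differences of that size are not excluded. Over all genes 0.066% and 0.033% were called higher and lower for the comparison with conventional heads and 0% for that with re-colonized heads. For cyp51 the effect in experiment 1 minus that in experiment 2 was -0.07 (SE 0.57) against conventional and 0.18 (SE 0.57) against re-colonized heads. For hmgcra, which showed larger rises in experiment 2, it was -0.94 (SE 0.51, adjusted p = 0.506) and -0.85 (SE 0.51, adjusted p = 0.771). Each of the 10 genes called in at least 1 comparison of experiment 2 was also called higher against both colonized groups of experiment 1. How often this holds over all genes was not counted, so it cannot be called particular to these genes. Of the 10, 6 (hmgcs1, hmgcra, sqlea, lss, cyp51 and sc5d) were called in all 4 comparisons, as were 1.67% of the 18768 genes tested in both experiments. The same 6 genes were those called higher against both colonized groups within experiment 2, as 2.32% of all genes tested there were. The log2 fold change was positive in all 4 for 19 of 29 genes and for 24.8% of all genes.

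ldlra and insig1 were not called in any comparison. Both were highest under the same replicate letter in all 3 groups of experiment 1, and ldlra under the same number in experiment 2. ldlra was highest in H in each of the 3 groups of experiment 1, at 70.9, 87.2 and 76.1 CPM in axenic, re-colonized and conventional heads, where the next library of each group held 53.6, 59.1 and 55.4 CPM. insig1 was also highest in H in each group, at 51.3, 56.1 and 48.8 CPM. The next library of each group held 36.6, 52.6 and 44.9 CPM, so H led narrowly in the colonized groups. In experiment 2 ldlra was highest in library 7 of each group, at 61.1, 55.6 and 83.2 CPM, while insig1 was highest in 7, 6 and 7. Of the 29 genes these were the 2 with the same letter highest in all groups of experiment 1, and ldlra was the 1 with the same number in experiment 2. Among genes with a mean of at least 1 CPM the same letter was highest in all 3 groups for 2.42% (444 of 18363) in experiment 1, and the same number for 3.49% (587 of 16817) in experiment 2, so in experiment 2 the members' share is that of all genes. The sources used here do not say what a letter or number stands for, and over all genes libraries that share 1 did not deviate together in every pair.

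**Figure D5:**
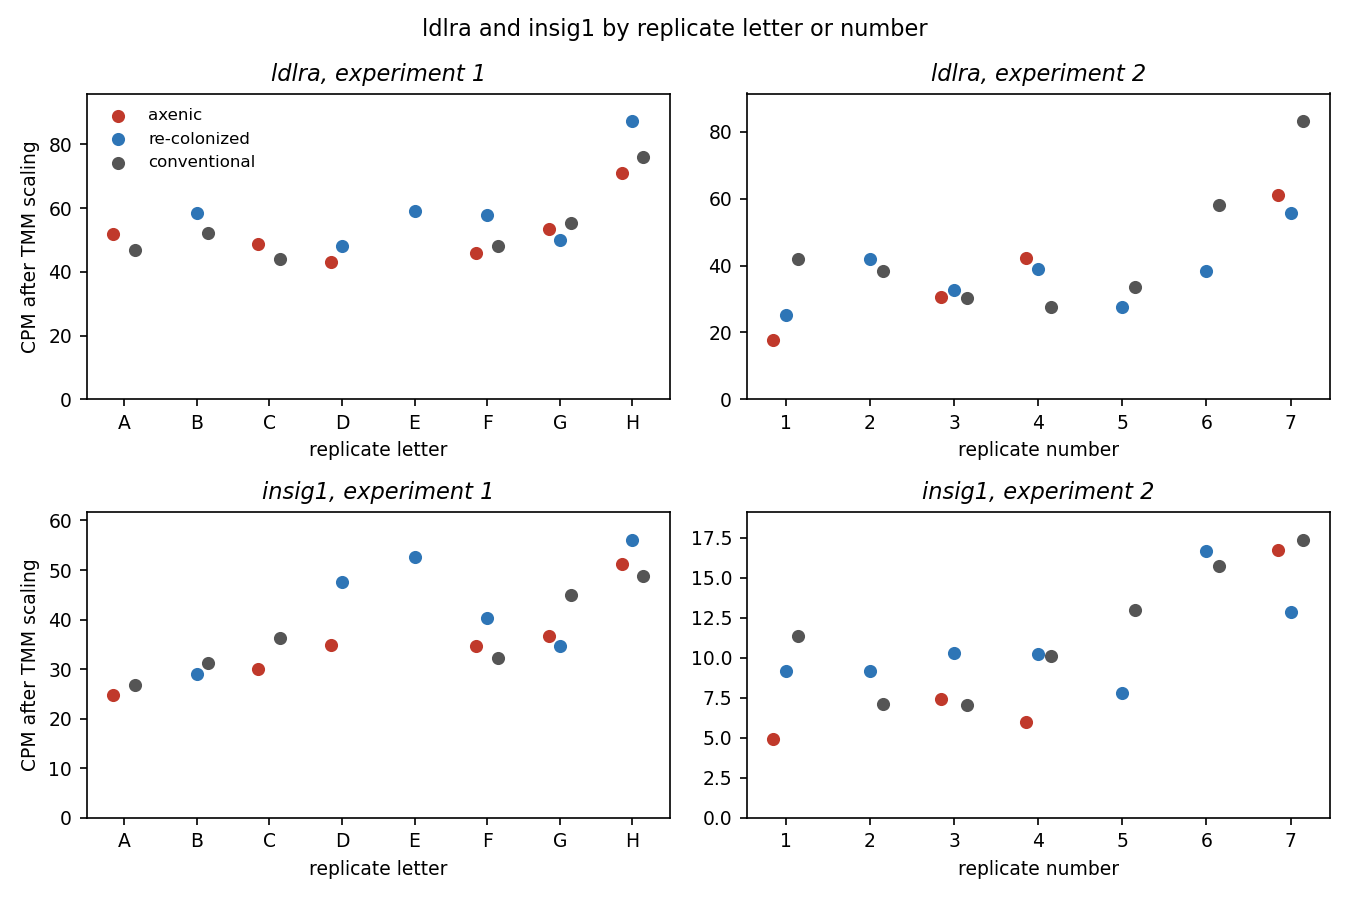
CPM after TMM scaling of ldlra (top) and insig1 (bottom) in every library, by replicate letter in experiment 1 (left) and replicate number in experiment 2 (right), with axenic in red, re-colonized in blue and conventional in grey. Libraries H of experiment 1 are the highest of each group for both genes, and library 7 of experiment 2 is the highest of each group for ldlra.

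Other genes of cholesterol handling did not share a direction. Of 62 further genes listed, 53 were in both tables, and of the 49 tested in experiment 1, 6 were higher and 7 lower in axenic than in conventional heads and 5 higher and 10 lower than in re-colonized heads. Over all genes, 8.89% were higher and 6.71% lower in the first comparison and 8.67% and 8.27% in the second. Of 51 tested in experiment 2, 1 was higher and 4 lower against conventional, and 1 higher and 3 lower against re-colonized heads. The shares over all genes there were 3.99% higher and 2.15% lower, and 3.25% higher and 0.64% lower.

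The 6 further genes named by the smallest adjusted p against re-colonized heads of experiment 1 were abca1a, srebf1, ldlrb, mylipa, scarb1 and aacs. abca1a, a transporter that exports cholesterol to lipoproteins, fell by 0.66 (SE 0.11, adjusted p = 0.000115) and 0.67 (SE 0.11, adjusted p = 9.65e-05), with 326.1 to 461.2 CPM in axenic and 561.9 to 844 CPM in colonized libraries. srebf1, the relative of srebf2 that acts mainly on fatty acid genes, fell by 0.73 (SE 0.12, adjusted p = 0.000153) and 0.73 (SE 0.12, adjusted p = 0.00012), from 90.8 to 124.4 CPM in colonized to 47.6 to 87.1 CPM in axenic libraries. mylipa, a ligase that in mammals marks the LDL receptor for degradation, fell by 0.61 (SE 0.12, adjusted p = 0.000525) and 0.57 (SE 0.12, adjusted p = 0.000934), from 90.9 to 119.3 CPM to 46.1 to 82.0 CPM. These 3 genes were lower in axenic heads in all 4 comparisons, with no overlap between axenic and colonized libraries in either experiment. They were named by a comparison of experiment 1, so for that experiment the separation is a description. Over all genes, 6.71% and 8.27% were called lower in experiment 1 and 2.15% and 0.64% in experiment 2. The share lower in all 4 comparisons or without overlap was not computed. The calls of abca1a in experiment 2 were lost without axenic 7 against conventional heads (adjusted p = 0.0623) and without any of 4 libraries against re-colonized heads (axenic 4 or 7, or re-colonized 3 or 7; 0.056 to 0.162). Within axenic heads mylipa was lowest in F and A (46.1 and 53.8 CPM) and in 7 and 3 (40.6 and 42.8 CPM), the libraries highest in synthesis genes. abca1a and srebf1 were also lowest in A and F of experiment 1. In experiment 2 they did not share this order. abca1a was lowest in 7 and 4 (399.7 and 674.5 CPM) and srebf1 was highest in 7 (54.51 CPM). ldlrb fell against re-colonized heads only (0.77, SE 0.15, adjusted p = 0.000693). scarb1, a lipoprotein receptor, rose by 0.54 (SE 0.14, adjusted p = 0.00766) and 0.64 (SE 0.14, adjusted p = 0.0019), and aacs, an acetoacetyl-CoA synthetase, by 0.54 (SE 0.14, adjusted p = 0.00819) and 0.60 (SE 0.14, adjusted p = 0.00315) in experiment 1.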

How the data were processed

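Per the labels' protocols, a contract laboratory isolated the RNA of experiment 1, removed ribosomal RNA and sequenced stranded pairs, while the RNA of experiment 2 came from an extraction at the US EPA and a polyA selection. Reads were handled with bcl2fastq, Partek 8.0.19.0428 and STAR 2.5.3a on GRCz11, per the submitters' processing notes. Which annotation was counted, and whether by strand, is not given in the sources used here; overlapping genes and close copies may share reads. The deposited values are estimated counts per gene, not normalized (24860 and 25077 genes). Of these values 9.44% and 17.3% lay more than 0.01 from a whole number. The planned test for raw counts was applied after rounding them.

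The test was the quasi-likelihood F test of edgeR 4.0.16 (R 4.3.3), with 1 fit per experiment of 3 group means to 18 libraries, TMM normalization and low counts removed by filterByExpr (19727 and 20169 genes tested), two-sided, with Benjamini-Hochberg adjustment over all genes tested and a call at an adjusted p below 0.05. Differences between experiments came from 1 fit over 36 libraries (21208 genes). Each SE was taken from the log2 fold change and its F statistic (size over the root of F). Where 2 values follow each other, the first is against conventional and the second against re-colonized heads unless stated. Per-library deviations used log2(CPM + 0.5).

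The members, gene lists, marker lists and alternatives were chosen with earlier results of these data known. Named genes are all 29 members by role, and of 62 further pathway genes the 6 with the smallest adjusted p in axenic against re-colonized heads of experiment 1. The same replicate letters or numbers do not pair the libraries by the labels. No 2 libraries of a group agreed within sampling noise (lowest chi-square per degree of freedom 5.24 and 27.3). Every column was matched to a sample, and 0 genes lacked a name. The procedure was checked on simulated counts. These were drawn independently for each gene and library, so axenic libraries that are high in many genes at once were not simulated. Alternatives were DESeq2 1.42.0, limma 3.58.1 (voom with quality weights), other scaling and filters, 2 groups alone, a replicate block and leaving out libraries. No sequence was used. 1 further pathway gene is not reported here.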

Additional observations from a re-analysis of the deposited data

Results flagged for a closer look

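Of 174 sets of values (29 genes in 6 groups), 15 held a library that stood apart from the others of its group, which is 8.62%. The rule set the gap to the nearest library against the range of the group. Its cutoffs flag about 1 in 20 independent sets of normal values. CPM need not be normal and the genes share libraries, so no excess over chance can be read from this share. The rate over all genes was not computed. Of the 15, 13 were high and 2 low, and 1 lay in an axenic group. ldlra stood apart in H of each group of experiment 1, at 70.9 CPM in axenic, 87.22 CPM in re-colonized and 76.14 CPM in conventional heads. Also in experiment 1, fdps was high in re-colonized G (9.107 CPM) and ggps1 low in re-colonized E (5.902 CPM).

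In experiment 2, conventional 2 was high for idi1 (17.54 CPM), nsdhl (1.106 CPM) and dhcr7 (36.07 CPM). Conventional 1 was high for hmgcra (18.38 CPM) and lbr (59.34 CPM). Conventional 7 was high for ebp (1.884 CPM) and low for tm7sf2 (4.422 CPM). Re-colonized 6 was high for msmo1 (8.053 CPM) and ebp (2.266 CPM), and re-colonized 5 for idi1 (20.19 CPM). idi1 was high in 1 library of each colonized group of experiment 2, where it was not called in either axenic comparison.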

How the results depend on the processing

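No called result of the 29 genes reversed under any alternative that was run (0 of 1126 values). Of these values 978 kept their call and 148 lost it. They are refits of the same libraries, taken only for results already called. They are thus not independent, and a reversal was unlikely from the start. Without axenic A and F together, 9 of 29 genes were called against conventional heads of experiment 1 (18 with all libraries) and 7 against re-colonized heads (20 with all libraries). Without axenic 3 and 7 together, 2 were called against conventional and 1 against re-colonized heads of experiment 2 (8 and 8 with all libraries), and without re-colonized 1 and 7 together 5 were called against re-colonized heads (1.43% of all genes higher). These pairs of axenic libraries were chosen after seeing the data and because they were high, and calls over all genes fell as well: higher calls from 8.89% to 4.77% and from 8.67% to 4.61% without A and F, and from 3.99% to 0.645% and from 3.25% to 0.378% without 3 and 7, against conventional and re-colonized heads. Leaving out 1 library at a time gave 16 to 18 and 16 to 21 calls in experiment 1 and 4 to 11 and 4 to 9 in experiment 2, against conventional and re-colonized heads. Higher calls over all genes of experiment 1 moved too. They were 1319 and 1286 without axenic A and 1848 and 1869 without axenic H. The lowest value in experiment 2 came without axenic 7 in both comparisons. Against re-colonized heads 5 were called without re-colonized 1, 3, 5 or 7. Calls over all genes without 1 library of experiment 2 are not given here. Whether the lower counts there are particular to the 29 genes is therefore not shown. Counts of 0 stayed at 0 throughout.

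With the replicate letter as a block, 11 genes were called against re-colonized heads of experiment 1, where 4 letters are shared, and all 11 were among the 20. Over all 19727 genes tested, higher calls fell there from 1710 to 1173 and lower calls from 1632 to 1106. The numbers do not pair the libraries by the labels, and libraries that share a letter or number correlated in their deviations from the group means at -0.19 to 0.40 over all comparisons, in no comparison above 0.1 for every pair, and in none did every library correlate best with its own. limma voom called 13 and 15 genes in experiment 1 and 7 and 7 in experiment 2. Of all 19727 genes of experiment 1 it called 1769 higher and 1363 lower, and 1571 higher and 1447 lower. Of all 20169 genes of experiment 2 it called 1191 higher and 877 lower, and 812 higher and 195 lower. In experiment 1, cyp51, hmgcra, hmgcs1 and msmo1 were called under all 21 alternatives against both groups, and hmgcra also under all 20 and 21 of experiment 2. The cause of the other losses was not tested.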
